A study of Mus musculus with 12 samples.

Results

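The presynaptic active zone scaffold is a small set of large proteins that hold synaptic vesicles and calcium channels together at the release site, and 10 genes that encode it were followed here: Bsn, Pclo, Rims1, Rims2, Unc13a, Unc13b, Erc1, Erc2, Ppfia2 and Ppfia3. They were chosen by gene symbol, matched to the count table by Ensembl gene identifier, and make up 10 of the 55573 genes counted and 10 of the 16820 genes tested. All 10 passed the filter on low counts. RNA was measured in 12 libraries of primary hippocampal neurons from neonatal C57BL/6 mice after 14 days in culture. There were 3 libraries of input RNA, taken from the cell lysate without an antibody, and 3 libraries of RNA co-purified with each of the endogenous proteins YTHDF1, YTHDF2 and YTHDF3 (RNA immunoprecipitation, RIP), and a value given as measured with 1 of the proteins was measured in its RIP. No genotype, drug or stimulus distinguished the groups, which by design differ in the antibody. Per the study's methods, the neurons of a replicate came from pooled hippocampi of single litters of both sexes, Ara-C was added to limit glia, and pooled lysate was divided among the 3 RIPs with 1 shared input. An immunoprecipitation with a control antibody was not analysed here, so enrichment means only a higher share of RIP reads than of input reads.

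YTHDF proteins bind mRNAs that carry N6-methyladenosine (m6A), and are known for effects on the translation, decay and localization of the mRNAs they bind. Bassoon (Bsn) and Piccolo (Pclo) are giant scaffolds of the presynaptic matrix, and the RIM proteins (Rims1, Rims2) link vesicle-bound Rab3 to calcium channels and to the priming factors Munc13-1 and Munc13-2 (Unc13a, Unc13b). ELKS (Erc1) and CAST (Erc2) bind RIM, Bassoon and the liprins, and liprin-α2 and liprin-α3 (Ppfia2, Ppfia3) help to recruit the other scaffolds to the nascent release site.

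Total counts per library ranged from 6020072 to 38909592, and Spearman correlations between replicates of a group lay between 0.935 and 0.983. No library pair held identical counts. The 10 scaffold genes took 0.183% to 0.290% of the counts in the Input libraries, 0.473% to 1.34% in the YTHDF1 RIP, 0.330% to 0.614% with YTHDF2 and 0.503% to 0.785% with YTHDF3, so that every RIP library lay above every Input library. All 5 neuronal markers (Map2, Rbfox3, Tubb3, Snap25, Syn1) were detected in every group, with summed levels of 2337 to 3111 CPM (counts per 1000000 counts of the TMM-scaled library) in Input. Glial RNA was present and uneven: the summed level of the 6 astrocyte markers, all detected, was 297, 1670 and 2741 CPM in Input replicates 1, 2 and 3, and 205, 927 and 1606 CPM in the same-numbered YTHDF3 RIP libraries. It was 380 to 1249 CPM in the YTHDF1 RIP and 761 to 1382 CPM with YTHDF2. Replicate 1 had the lowest astrocyte sum in all 4 groups. The 2 oligodendrocyte precursor markers summed to 2.90, 113 and 119 CPM in Input replicates 1 to 3 and 5.05, 241 and 266 CPM with YTHDF3. They summed to 200, 155 and 450 CPM in the YTHDF1 RIP and 236, 221 and 365 CPM with YTHDF2. A difference in cell material between the YTHDF1 or YTHDF2 RIP and Input cannot be told apart from the antibody here. The members' average level was highest in replicate 1 of Input and of the YTHDF3 RIP, but in replicate 3 of the YTHDF1 and YTHDF2 RIPs. In these bulk libraries fewer neurons and less RNA per neuron cannot be told apart, and the part of glial RNA in the results was not tested.

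Because YTHDF proteins recognise m6A, which is deposited most often in sequences such as GGACT, the occurrences of this motif in the scaffold mRNAs were counted on the sense strand of 1 protein-coding transcript per gene (GENCODE M21, build GRCm38). All 10 transcripts held it, as did 91.5% of the 13337 tested protein-coding genes. The scaffold transcripts held a median of 7 occurrences, against 3 over those genes, but per kilobase their median of 0.957 was close to the 1.04 of those genes. Bsn and Pclo held 17 each, Unc13a 12, Unc13b 11, Rims1, Erc1 and Ppfia3 7 each, Ppfia2 4, and Rims2 and Erc2 3 each. Per kilobase the count ran from 0.45 in Ppfia2 to 1.51 in Ppfia3 and 1.73 in Unc13b. Bsn and Pclo, with 17 each in the longest of the 10 transcripts, also had the highest fold changes over input with YTHDF1. Per kilobase they held 1.07 and 0.846, near the median of those genes. Ppfia2 had the lowest fold change there and the lowest count per kilobase, but Rims2 and Erc2 held fewer occurrences. Neither count gave the order of the fold changes. Unc13b, with the highest count per kilobase, was not called with YTHDF1, and Rims2, with 3 occurrences, had a higher fold change there than Rims1, with 7. The Rims2 transcript used is annotated without untranslated regions, so its count covers coding sequence alone. A relation between motif counts and enrichment was not tested. The occurrences nearest the stop codon, where m6A is known to be concentrated, are shown for 4 pairs of relatives so that members of a pair can be compared, with the motif in capitals. A match is a description of the sequence, and methylation was not measured in these libraries.
Bsn, 3′ UTR, chr9:108103194-108103214, minus strand: gcagctctGGACTctgcgtat
Pclo, coding sequence, chr5:14788407-14788427, plus strand: caagagaaGGACTaaatatgt
Unc13a, coding sequence, chr8:71629657-71629677, minus strand: tgcgtgaaGGACTactgcttt
Unc13b, coding sequence, chr4:43263380-43263400, plus strand: gtgtgataGGACTggcagtga
Erc1, coding sequence, chr6:119594856-119594876, minus strand: tcctccgtGGACTcactccac
Erc2, coding sequence, chr14:28025084-28025104, plus strand: ctgaaaagGGACTccaaactg
Ppfia2, coding sequence, chr10:106913607-106913627, plus strand: aagcaattGGACTtcgggaat
Ppfia3, coding sequence, chr7:45340206-45340226, minus strand: ttcggtccGGACTtactcctg
The motif began 93 bases from the stop codon, on its 3′ side, in Bsn, and on the 5′ side in the other members, at 1154 bases in Pclo. This distance was 244 bases in Unc13a and 195 in Unc13b, 219 in Erc1 and 928 in Erc2, and 411 in Ppfia2 and 14 in Ppfia3. In Rims1 and Rims2 it was 911 and 1037 bases. The Rims2 transcript has no annotated 3′ UTR, so only the 5′ side of its stop codon was searched. Within 500 bases of the stop codon there were 4 occurrences each in Unc13b and Ppfia3, 1 each in Bsn, Unc13a, Erc1 and Ppfia2, and 0 in Pclo, Rims1, Rims2 and Erc2.

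All 10 mRNAs were expressed in these neurons. On the scale of CPM per kilobase of exon, which allows levels of different genes to be compared, the mean Input levels ran from Bsn at 38.6 ± 12.5 (SD, n = 3) through Rims1 at 25.6 ± 6.81, Pclo at 20.5 ± 5.20, Unc13a at 20.0 ± 4.37, Ppfia2 at 19.9 ± 4.70, Erc2 at 19.8 ± 4.73, Ppfia3 at 16.0 ± 4.26 and Erc1 at 13.9 ± 1.46 to Rims2 at 4.65 ± 0.747 and Unc13b at 1.48 ± 0.340. From Bsn to Erc1 the ranges of neighbours in this order overlapped, whereas Rims2 and Unc13b overlapped with no other member. The length used is the union of all annotated exons. For Unc13b this union (22746 bases) was 3.58 times its chosen transcript (6354 bases), so that its level per kilobase depends on the transcript assumed. The union was 2.2 times the chosen transcript in Rims2, 1.95 in Erc1, 1.7 in Ppfia3 and 1.56 in Erc2, against 1 in Bsn and 1.12 in Pclo. The order of the members given above therefore also depends on the lengths used.

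Most of the scaffold mRNAs were called enriched over input in the YTHDF1 and YTHDF3 RIPs, and 5 of 10 with YTHDF2. A call required a log2 change of at least 0.32 in size and an adjusted p no higher than 0.05 in edgeR's quasi-likelihood test across all 16820 genes. In the YTHDF1 RIP 8 members were called higher and 0 lower, where 27.5% of all genes were called higher and 26.1% lower. With YTHDF2, 5 were called higher and 0 lower, against 16.1% of all genes higher and 19.3% lower. With YTHDF3, 7 were called higher and 0 lower, against 16.7% of all genes higher and 23.2% lower. The median log2 fold change of the members was 1.61, 0.83 and 0.94 in the 3 RIPs, with 0.02, 0.02 and 0.05 over all genes tested. All 3 RIP libraries lay above all 3 Input libraries for 8, 5 and 8 members, where this held for 28%, 25.5% and 26.8% of all genes. Unc13a, Erc1 and Ppfia3 were called in all 3 RIPs, and Bsn, Pclo, Rims2, Unc13b and Erc2 in 2 of them. Rims1 was called in 1 and Ppfia2 in 0. The 3 comparisons share the same Input libraries, so calls of a gene in several RIPs are not independent. Without Input replicate 3, 6, 1 and 5 members were called higher with YTHDF1, YTHDF2 and YTHDF3, as were 3662, 1940 and 2382 of the 16820 genes.

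The counts depended on single libraries in the YTHDF2 and YTHDF3 RIPs. Without Input replicate 2 or without Input replicate 3, 1 member stayed past the threshold with YTHDF2, without YTHDF2 RIP replicate 1 or 3 it was 2, and without YTHDF3 RIP replicate 2, which enters through the shared estimate of the spread, it was 3. Calls over all genes fell as well. With YTHDF2, 1924 and 1940 genes were called higher without Input replicate 2 or 3, against 2704 with all libraries. They were 1975 and 2114 without YTHDF2 RIP replicate 1 or 3, and 2375 without YTHDF3 RIP replicate 2. With YTHDF3 the count of members was 3 without YTHDF3 RIP replicate 1, where 2315 of all genes were called higher, against 2812 with all libraries. The same-numbered Input and YTHDF3 RIP libraries deviated together from their group means (Pearson r of 0.539 to 0.835 over genes), and in a fit of these 2 groups with the replicate number as a block all 10 members were called higher, as were 36.5% of all genes. With 3 libraries per group, the p-values of that fit lean on a spread estimated over many genes, and the pairing was judged from these same data. Scaling by library size alone moved the median of all genes by -0.40, 0.07 and 0.33 in the 3 RIPs and gave 6, 6 and 10 members called higher, against 18.3%, 17.4% and 28.7% of all genes. With that scaling 33.4% of the calls in the YTHDF1 RIP were in the higher direction, against 51.3% with TMM, and 61.7% against 41.9% with YTHDF3.

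**Figure D1:**
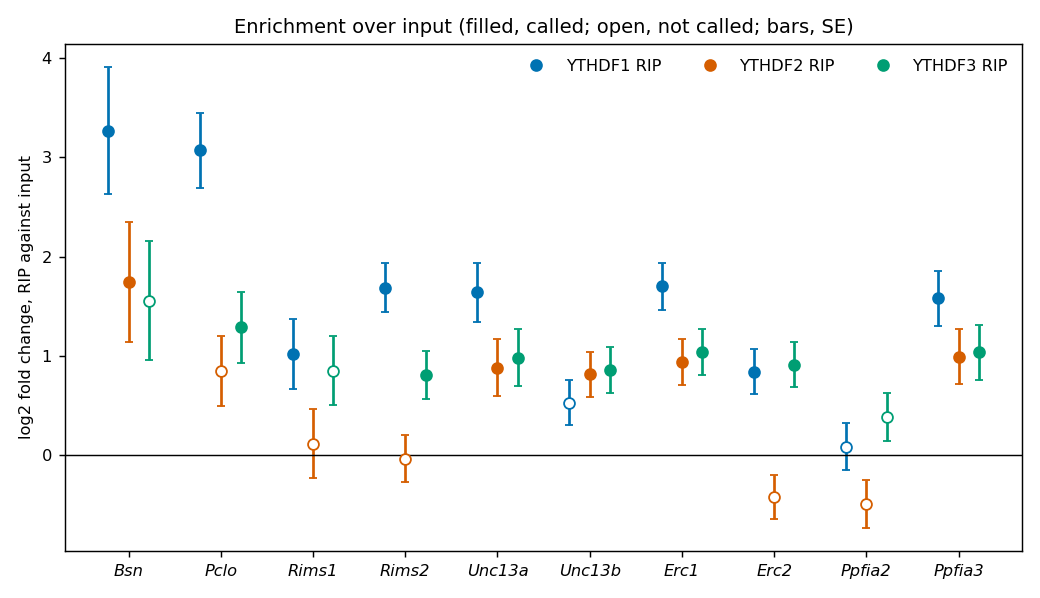
Log2 fold change of each scaffold mRNA in each RIP against input (vertical axis, log2 units), from edgeR with 3 libraries per group, where points are estimates, bars are standard errors and filled points passed the call threshold. Bsn and Pclo in the YTHDF1 RIP sit at 3.27 and 3.07, and Ppfia2 is open in all 3 RIPs.

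Length moved with these results. The members' median exonic length was 11763 bases, against 3927.5 for all genes tested, and each member lay between the 81.1st and the 99.6th percentile. When the trend of log2 ratio with exonic length was removed from each library, the median log2 fold change of the members was 0.49 in the YTHDF1 RIP, 0.27 with YTHDF2 and 0.38 with YTHDF3. In the YTHDF1 RIP 4 members were then called higher: Bsn (log2 fold change 1.94), Pclo (1.42), Ppfia3 (0.95) and Rims2 (0.80), where 22.4% of all genes were called higher. Unc13b (-1.10) and Ppfia2 (-0.85) were called lower, as were 24.8% of all genes. With YTHDF2, 0 members were called higher, against 13.2% of all genes, and 2 lower, Ppfia2 (-0.90) and Erc2 (-0.81), against 16.6%. With YTHDF3, 0 were called in either direction, where 15.5% of all genes were called higher and 16.9% lower. With the length of 1 transcript per gene in place of all exons, an alternative chosen after seeing the data, Rims2 (1.03), Ppfia3 (0.94) and Pclo (0.86) stayed higher in the YTHDF1 RIP and Ppfia2 (-1.32) lower, against 19.9% and 22.2% of all genes. For Rims2 this length was 4719 coding bases without a UTR, against 10389 bases of all exons. Its value there therefore depends on the transcript assumed. Bsn stood at 1.24 ± 0.52 (SE) in this setting, with an adjusted p of 0.0753 in edgeR, and Unc13b at -0.48, with an adjusted p of 0.136. With YTHDF2, 12.5% of all genes were then called higher and 16% lower, Ppfia2 (-1.07) and Erc2 (-0.89) being the members called, both lower. With YTHDF3, 13.2% were called higher and 15.3% lower, with 0 members in either direction.

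**Figure D2:**
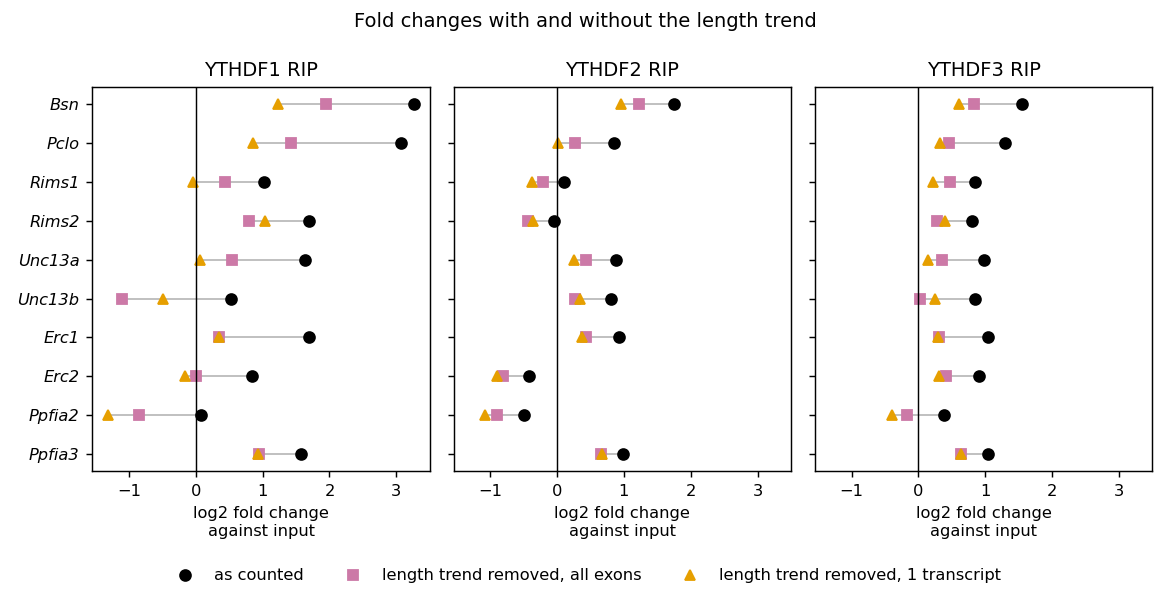
Log2 fold change of each scaffold mRNA against input (horizontal axis, log2 units), 1 panel per RIP, as counted (circles), with the length trend over all exons removed (squares) and with the trend over 1 transcript per gene removed (triangles). The points move left for all 10 members in all 3 panels, and Ppfia2 lies below 0 in every panel once the trend is removed.

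The giant scaffolds Bsn and Pclo had the highest enrichment of the 10 in the YTHDF1 RIP. Bsn (ENSMUSG00000032589, chr9:108096022-108190384, minus strand) stood at 791, 656 and 399 CPM in Input replicates 1 to 3. Its levels were 6497, 1683 and 9627 CPM in the YTHDF1 RIP, 1961, 983 and 3239 CPM with YTHDF2 and 2428, 1932 and 1056 CPM with YTHDF3. No RIP library of any protein reached down to the Input range, but YTHDF1 RIP replicate 2 was far below the other two. The log2 fold change was 3.27 ± 0.64 (SE) in the YTHDF1 RIP (adjusted p = 0.00132, edgeR), which ranked 242nd from the top of the 16820 genes. With YTHDF2 it was 1.74 ± 0.61 (adjusted p = 0.0424), a call that was lost without any 1 of 7 libraries (the 3 Input replicates, YTHDF1 RIP replicate 1, YTHDF2 RIP replicates 1 and 3, YTHDF3 RIP replicate 2). With YTHDF3 it was 1.55 ± 0.60 and did not pass (adjusted p = 0.0594, edgeR), although DESeq2 called it (1.58, adjusted p = 0.0164). With the replicate block in Input and the YTHDF3 RIP alone it also passed (1.58, adjusted p = 1.03e-11, edgeR), in a fit that called 36.5% of all genes higher. Bsn shares 57 exonic bases with 1 gene on the same strand, Gm47303, whose reads would be counted for both.

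Pclo (ENSMUSG00000061601, chr5:14514918-14863459, plus strand) had 584, 443 and 352 CPM in Input and 3755, 2537 and 5289 CPM in the YTHDF1 RIP. Every YTHDF1 RIP library was thus more than any other library of the series. It had 779.6, 543 and 1155 CPM with YTHDF2, where replicate 2 fell inside the Input range, and 1439.5, 1094 and 832 CPM with YTHDF3, which did not overlap with Input. The log2 fold change was 3.07 ± 0.38 in the YTHDF1 RIP (adjusted p = 7.03e-05, edgeR) and 1.29 ± 0.36 with YTHDF3 (adjusted p = 0.0139), the latter lost without YTHDF3 RIP replicate 1. With YTHDF2 it was 0.85 ± 0.36 and did not pass (adjusted p = 0.0853).

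**Figure D3:**
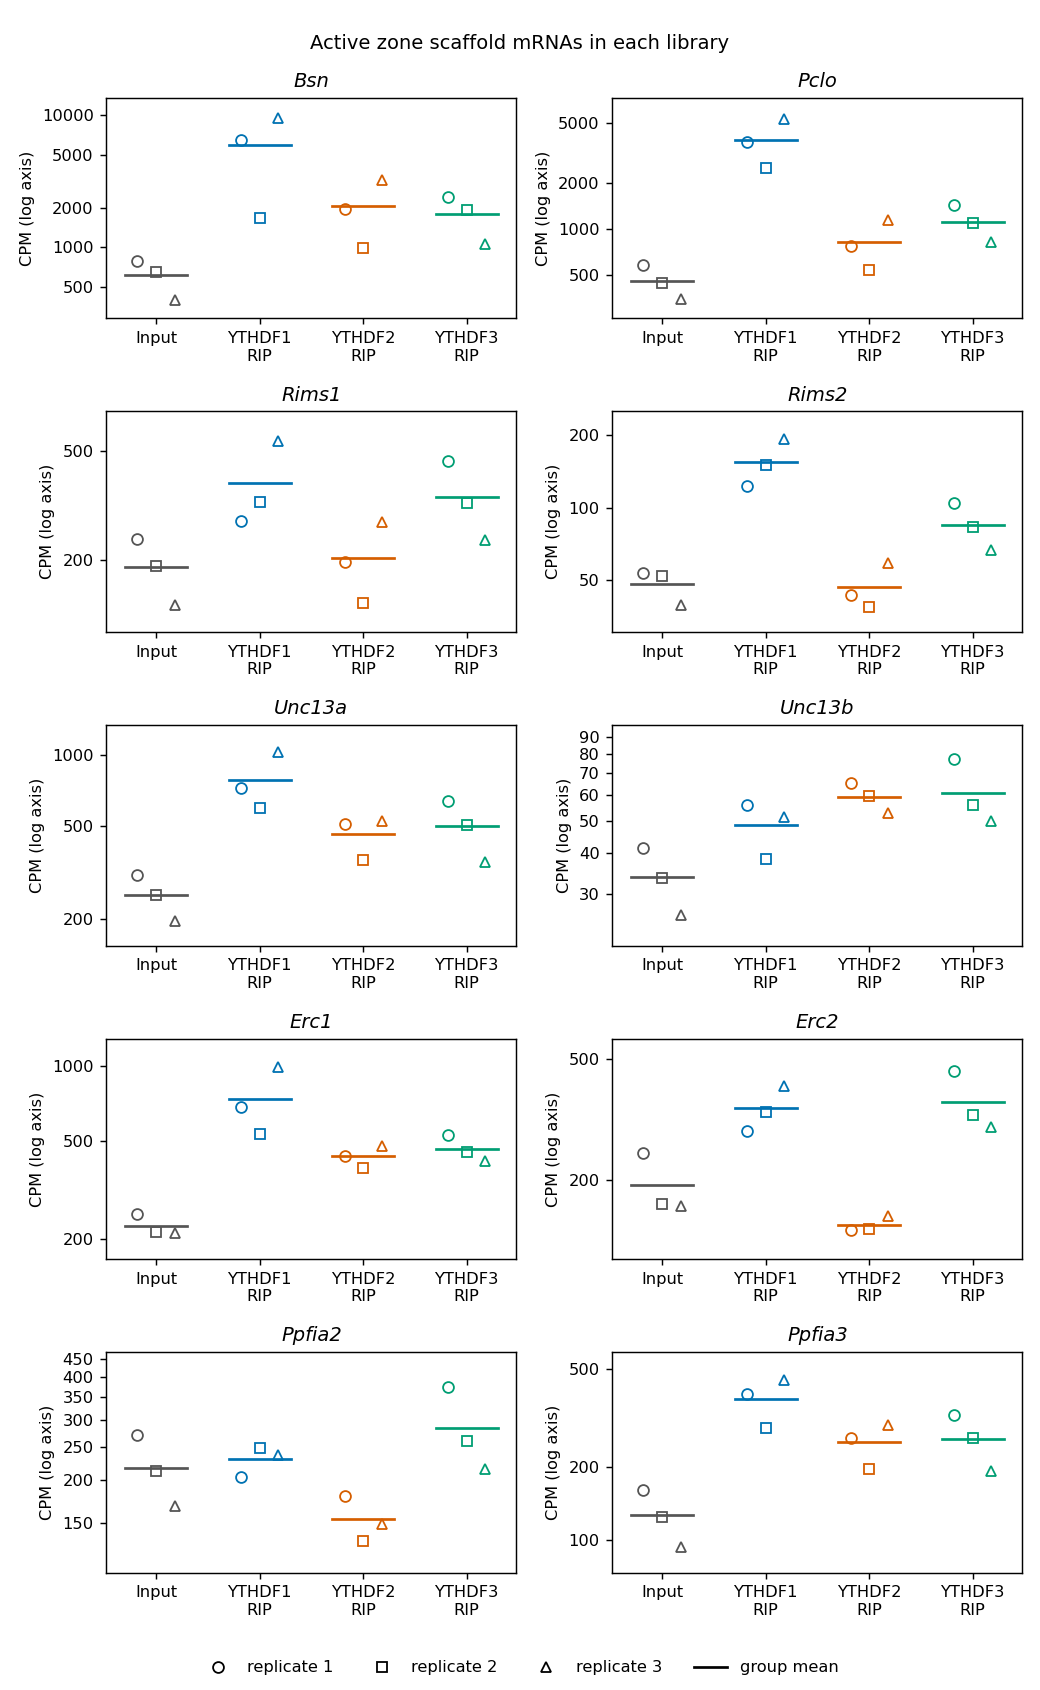
Level of each scaffold mRNA in each library in CPM (vertical log axes, each panel with its own range), by group on the horizontal axis, with symbols for the replicate number and lines at the group means (n = 3). Input replicate 3 is the lowest Input library in all 10 panels, and YTHDF1 RIP replicate 3 is the highest YTHDF1 RIP library for 8 of the 10 mRNAs, all but Unc13b and Ppfia2.

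The RIM mRNAs were enriched with YTHDF1 and not detectably with YTHDF2. Rims1 (ENSMUSG00000041670, chr1:22286251-22805994, minus strand) had 238, 190 and 137 CPM in Input, 278, 325 and 541 CPM in the YTHDF1 RIP, 197, 139 and 274 CPM with YTHDF2 and 458, 322 and 236 CPM with YTHDF3. Only the YTHDF1 RIP libraries lay wholly above Input. Its log2 fold change was 1.02 ± 0.35 in the YTHDF1 RIP (adjusted p = 0.0283, edgeR) and was no longer past the threshold without Input replicate 2, Input replicate 3 or YTHDF1 RIP replicate 3. It was 0.11 with YTHDF2, with a 95% confidence interval of -0.65 to 0.87. With YTHDF3 it was 0.85 (adjusted p = 0.0741, edgeR). With the replicate block in Input and the YTHDF3 RIP alone it was 0.89 (adjusted p = 1.39e-08, edgeR), in a fit that called 36.5% of all genes higher. Rims2 (ENSMUSG00000037386, chr15:39198261-39684372, plus strand) was lower in abundance, with 53.5, 52.0 and 39.4 CPM in Input and 43.5, 38.7 and 58.7 CPM with YTHDF2. These ranges overlapped, and the log2 fold change was -0.04 (95% confidence interval -0.57 to 0.49). In the YTHDF1 RIP Rims2 reached 123, 150.4 and 193 CPM, and with YTHDF3 104, 82.8 and 66.5 CPM, all above Input. The log2 fold change was 1.69 ± 0.25 in the YTHDF1 RIP (adjusted p = 0.00019, edgeR) and 0.81 ± 0.24 with YTHDF3 (adjusted p = 0.0195), where the call was lost without Input replicate 3 or YTHDF3 RIP replicate 1.

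Of the priming factors, Unc13a was enriched with all 3 proteins. Unc13a (ENSMUSG00000034799, chr8:71624417-71671757, minus strand) had 307, 253 and 196 CPM in Input, 724, 594 and 1035 CPM in the YTHDF1 RIP, 509, 356 and 525 CPM with YTHDF2 and 637, 504 and 350.3 CPM with YTHDF3. Each of the 9 RIP libraries exceeded each Input library. The log2 fold changes were 1.64 ± 0.30 (adjusted p = 0.000763, edgeR), 0.88 ± 0.29 (adjusted p = 0.0348) and 0.98 ± 0.29 (adjusted p = 0.0189). The YTHDF2 call was lost without Input replicate 2 or 3, YTHDF2 RIP replicate 1 or 3, or YTHDF3 RIP replicate 2, and the YTHDF3 call without Input replicate 2 or 3, or YTHDF3 RIP replicate 1 or 2. Unc13b (ENSMUSG00000028456, chr4:43058953-43264871, plus strand) was the least abundant member, with 41.5, 33.7 and 26.1 CPM in Input. It had 56.0, 38.3 and 51.6 CPM in the YTHDF1 RIP, 65.4, 59.5 and 52.9 CPM with YTHDF2 and 77.3, 55.8 and 50.05 CPM with YTHDF3. Replicate 2 of the YTHDF1 RIP overlapped with Input, while the other two proteins' libraries did not. The log2 fold change was 0.81 ± 0.23 with YTHDF2 (adjusted p = 0.0182, edgeR), lost without Input replicate 2, Input replicate 3 or YTHDF2 RIP replicate 1. It was 0.85 ± 0.23 with YTHDF3 (adjusted p = 0.0117), lost without YTHDF3 RIP replicate 1. In the YTHDF1 RIP it was 0.53 ± 0.23 and did not pass (adjusted p = 0.0729).

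Of the ELKS family mRNAs, Erc1 was called with all 3 proteins and Erc2 with YTHDF1 and YTHDF3. Erc1 (ENSMUSG00000030172, chr6:119570796-119848167, minus strand) had 254, 215 and 211 CPM in Input, 682, 532 and 995 CPM in the YTHDF1 RIP, 435, 386 and 477 CPM with YTHDF2 and 528, 449.7 and 415 CPM with YTHDF3. No RIP library overlapped with Input. The log2 fold changes were 1.70 ± 0.24 (adjusted p = 0.000137, edgeR), 0.93 ± 0.23 (adjusted p = 0.00935) and 1.03 ± 0.23 (adjusted p = 0.00425), and the 3 calls held with any single library left out. Erc2 (ENSMUSG00000040640, chr14:27622428-28478537, plus strand) had 246, 168 and 164 CPM in Input and 138, 139 and 153 CPM with YTHDF2. The YTHDF2 RIP libraries all lay below Input, as did those of 27.7% of all genes, with a log2 fold change of -0.43 ± 0.23 that did not pass the test (adjusted p = 0.163, edgeR). In the YTHDF1 RIP Erc2 had 290.4, 335 and 408 CPM, and with YTHDF3 457, 327 and 299.8 CPM, all above Input. The log2 fold changes were 0.84 ± 0.23 (adjusted p = 0.0086) and 0.91 ± 0.23 (adjusted p = 0.00779). The YTHDF1 call was lost without Input replicate 3 or YTHDF1 RIP replicate 3.

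Of the liprin mRNAs, Ppfia3 was called in all 3 RIPs and Ppfia2 in 0. Ppfia3 (ENSMUSG00000003863, chr7:45339122-45367019, minus strand) had 161, 124 and 93.8 CPM in Input, 394, 287 and 451 CPM in the YTHDF1 RIP, 262, 196 and 294 CPM with YTHDF2 and 325, 261 and 191 CPM with YTHDF3. Every RIP library was above every Input library. Its log2 fold changes were 1.58 ± 0.28 (adjusted p = 0.000679, edgeR), 0.99 ± 0.28 (adjusted p = 0.0165) and 1.04 ± 0.28 (adjusted p = 0.011), and the YTHDF2 call was lost without Input replicate 2, Input replicate 3 or YTHDF2 RIP replicate 3. Ppfia2 (ENSMUSG00000053825, chr10:106470339-106935952, plus strand) had 271, 213 and 168 CPM in Input and 204, 249 and 237 CPM in the YTHDF1 RIP. It had 179.5, 134 and 149 CPM with YTHDF2 and 373, 259.6 and 216 CPM with YTHDF3, and each RIP overlapped with Input. The log2 fold changes were 0.08 (95% confidence interval -0.44 to 0.61) in the YTHDF1 RIP, -0.50 (-1.02 to 0.03) with YTHDF2 and 0.38 (-0.15 to 0.90) with YTHDF3, none of which passed. With the replicate block in Input and the YTHDF3 RIP alone, Ppfia2 was called at 0.43 (adjusted p = 0.000276, edgeR), in a fit that called 36.5% of all genes higher.

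Related scaffolds were also compared within each library, as the log2 ratio of their counts per kilobase, a measure that does not depend on the scaling between libraries. The exonic lengths cancel in the difference between RIP and input, whereas a length trend within a RIP does not. Ppfia2 over Ppfia3 was 0.28, 0.31 and 0.38 in Input. It was -1.41, -0.67 and -1.39 in the YTHDF1 RIP, -1.01, -1.02 and -1.45 with YTHDF2 and -0.27, -0.47 and -0.29 with YTHDF3. With the lengths of all exons, this ratio was above 0 in Input and below 0 in all 9 RIP libraries. The differences from the Input mean were -1.48, -1.48 and -0.67. The union of exons was 1.23 times the chosen transcript in Ppfia2 and 1.7 times in Ppfia3. The sign of the ratio therefore depends on the lengths used, whereas the differences do not. Erc1 over Erc2 was -0.69, -0.39 and -0.38 in Input and 0.91, 0.73 and 0.90 with YTHDF2, a difference of 1.33. In the YTHDF1 RIP it was 0.49, -0.08 and 0.54, a difference of 0.80, and with YTHDF3 -0.53, -0.28 and -0.27, within the overlap with Input. Unc13a over Unc13b was nearly constant in Input at 3.73, 3.75 and 3.76, and higher in the YTHDF1 RIP at 4.54, 4.80 and 5.17, whereas the YTHDF2 and YTHDF3 RIPs (differences of 0.05 and 0.11) overlapped with Input. Rims1 over Rims2 was 2.65, 2.37 and 2.30 in Input and lower in the YTHDF1 RIP at 1.67, 1.61 and 1.98. Bsn over Pclo was 0.93, 1.06 and 0.68 in Input and 1.83, 1.35 and 1.98 with YTHDF2, while the YTHDF1 RIP spread from -0.10 to 1.36. In all, 8 of the 15 comparisons did not overlap. Each of these 8 reached p = 0.1 in the exact two-sided permutation test, which is the smallest that 3 libraries against 3 can give, and the adjusted value over the 15 comparisons was 0.1875, so that none could pass 0.05. The share over other pairs of genes was not counted, so the 8 are not read as particular to these pairs. Of single genes, 25.5% lay wholly above and 27.7% wholly below Input with YTHDF2.

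**Figure D4:**
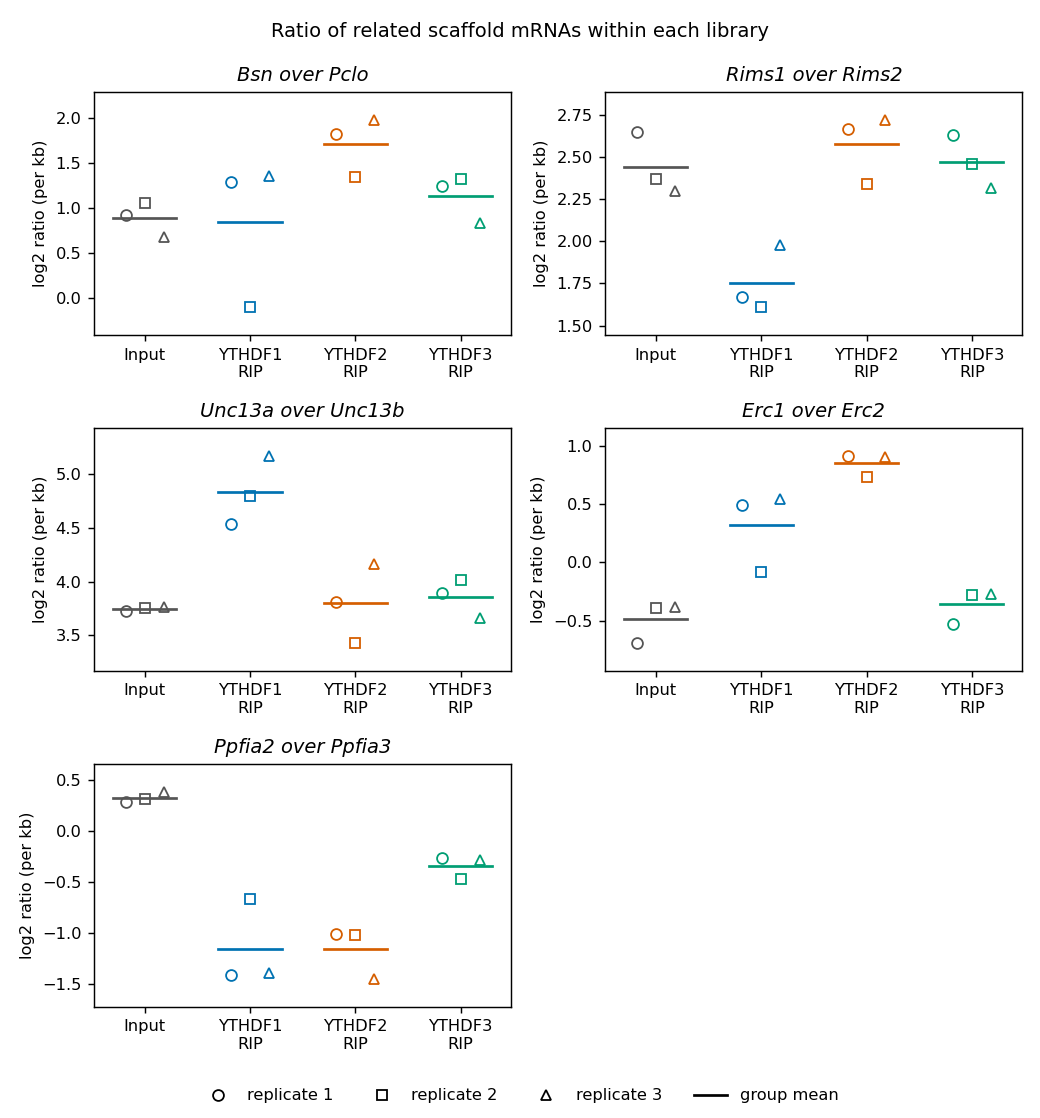
Log2 ratio of 2 related scaffold mRNAs, as counts per kilobase, within each library (vertical axes, log2 units, each panel with its own range), by group, with symbols for the replicate number and lines at the group means (n = 3). With the lengths of all exons, on which the sign depends, Ppfia2 over Ppfia3 is above 0 in the 3 Input libraries and below 0 in the 9 RIP libraries. The Erc1 over Erc2 ratio is highest in the YTHDF2 RIP.

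Directly between the RIPs, the call required a 2-fold difference as well as an adjusted p no higher than 0.05. Of the 10, 3 were called higher with YTHDF1 than with YTHDF2, as were 11.4% of all genes, and 0 lower, as were 6.13%. These were Pclo (log2 difference 2.23 ± 0.37, adjusted p = 0.00111, edgeR), Rims2 (1.73 ± 0.25, adjusted p = 0.00043) and Erc2 (1.27 ± 0.23, adjusted p = 0.00182), and the 3 calls held with any single library left out. The members' median difference was 0.84, against 0.03 for all genes tested. Only Pclo was called higher with YTHDF1 than with YTHDF3 (1.78 ± 0.36, adjusted p = 0.00521), where 11% of all genes were called higher and 3.62% lower. Bsn did not pass in either comparison (1.53 ± 0.60, adjusted p = 0.0837, and 1.72 ± 0.60, adjusted p = 0.0631, edgeR), and without YTHDF1 RIP replicate 2 it passed in both. That leaves 2 members called between the YTHDF1 and YTHDF3 RIPs when this replicate is left out, and also 2 without YTHDF1 RIP replicate 1 or without YTHDF3 RIP replicate 1. In these fits, in turn, 1383, 1990 and 1604 of all genes were called higher. Erc2 was the only member called between the YTHDF2 and YTHDF3 RIPs, lower with YTHDF2 by a log2 difference of -1.33 ± 0.23 (adjusted p = 0.00848, edgeR), where 1.17% of all genes were called lower and 3.97% higher. It held with any single library left out and with the length trend removed. Ppfia2 differed between these RIPs by -0.88 (adjusted p = 0.0471), less than the fold change set for a call. When the libraries were scaled by their totals only, the median of all genes moved by -0.47 between the YTHDF1 and YTHDF2 RIPs, by -0.73 between the YTHDF1 and YTHDF3 RIPs and by -0.26 between the YTHDF2 and YTHDF3 RIPs. The calls in the higher direction were then 27.9%, 18.3% and 39.6%, against 65.1%, 75.2% and 77.2% with TMM. With the length trend removed those shares were 55.6%, 54.6% and 58.5%. Differences between RIPs are therefore relative to the scaling used.

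The mRNAs of the proteins that work with the scaffold were called in both directions, counted over 4 lists. Of the 6 further relatives of the members, 5 were tested (all but Unc13d) and 3 were called higher in each RIP with 0 lower: Rims3, Unc13c and Ppfia1. Of all genes, 27.5%, 16.1% and 16.7% were called higher in the 3 RIPs in turn and 26.1%, 19.3% and 23.2% lower. A list of 5 genes is too short to read this as a trait of the relatives. Unc13c (Munc13-3) had a log2 fold change of 1.84 ± 0.39 in the YTHDF1 RIP (adjusted p = 0.002, edgeR), at low levels of 8.89 against 2.53 CPM. Ppfia1 (liprin-α1) had 1.03 ± 0.18, 1.27 ± 0.18 and 1.11 ± 0.18 in the 3 RIPs. Of the 23 binding partners, 8 (34.8%) were called higher and 4 (17.4%) lower in the YTHDF1 RIP, where 27.5% of all genes were called higher and 26.1% lower. With YTHDF2 they were 4 (17.4%) and 3 (13%), against 16.1% and 19.3% of all genes. With YTHDF3 they were again 8 and 4, against 16.7% and 23.2%. Ptprd, a receptor phosphatase that binds liprins, rose most in the YTHDF1 RIP, with a mean of 2670 against 131.5 CPM and a log2 fold change of 4.34 ± 0.34 (adjusted p = 5.00e-06, edgeR), but stood at 0.38 ± 0.30 with YTHDF2 (adjusted p = 0.338). Tspoap1, which encodes the RIM-binding protein RIM-BP1, was highest with YTHDF3 (1.61 ± 0.22, adjusted p = 0.000224), and Syde2 with YTHDF2 (1.44 ± 0.26, adjusted p = 0.00171). Lin7a, an adaptor of the CASK complex, was the lowest in all 3 RIPs, at -1.44, -2.71 and -1.80.

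Of the 10 presynaptic calcium channel subunits, 5 were called higher and 1 lower in the YTHDF1 RIP, where 27.5% of all genes were called higher and 26.1% lower. With YTHDF2 they were 1 and 2, against 16.1% and 19.3% of all genes, and with YTHDF3 2 and 1, against 16.7% and 23.2%, near or under the background. Pore subunits were the highest called: Cacna1e in the YTHDF1 RIP (2.13 ± 0.44, adjusted p = 0.00171, edgeR), Cacna1b with YTHDF2 (0.77 ± 0.23, adjusted p = 0.0219) and Cacna1a with YTHDF3 (1.07 ± 0.32, adjusted p = 0.0204). The lowest called were β subunits, namely Cacnb3 in the YTHDF1 and YTHDF3 RIPs (-0.79 and -0.74) and Cacnb1 with YTHDF2 (-0.74). The 24 mRNAs of vesicle fusion and synaptic vesicle proteins had medians of 0.00, -0.42 and 0.12, with 3 (12.5%) higher and 5 (20.8%) lower in the YTHDF1 RIP, 0 higher and 5 (20.8%) lower with YTHDF2 and 2 (8.33%) higher and 2 (8.33%) lower with YTHDF3. Against the shares of all genes just given, the higher calls were below the background in all 3 RIPs, and the lower calls were near it with YTHDF2 and below it in the other two. Stxbp5, which encodes the syntaxin-binding inhibitor tomosyn, rose in the YTHDF1 RIP (2.72 ± 0.33, adjusted p = 6.38e-05, edgeR) and with YTHDF3 (1.12 ± 0.32, adjusted p = 0.0151). Vamp2, the vesicle SNARE, fell in all 3, by 1.62 and 1.84 on the log2 scale in the YTHDF1 and YTHDF2 RIPs, and Napa, which encodes the SNARE disassembly adaptor α-SNAP, was the lowest with YTHDF3 (-1.06). Stx1a, the plasma membrane SNARE syntaxin-1A, was lower with YTHDF2 (-0.65). Counts in these short lists moved with single libraries, as did those over all genes (with YTHDF2, 1924 to 3058 called higher and 2426 to 3852 lower). Of the channel subunits with YTHDF2, 0 were called lower without Input replicate 1 or YTHDF2 RIP replicate 1, and 1 without Input replicate 2, YTHDF2 RIP replicate 2 or YTHDF3 RIP replicate 2. The higher call was lost without Input replicate 2, Input replicate 3 or YTHDF2 RIP replicate 1, and became 2 calls without YTHDF1 RIP replicate 2 or 3 or YTHDF2 RIP replicate 2. With YTHDF3, 1 subunit was called higher without Input replicate 2, Input replicate 3, YTHDF3 RIP replicate 1 or YTHDF3 RIP replicate 2, while 0 were lower without Input replicate 1 or YTHDF3 RIP replicate 2 or 3, and 2 without YTHDF3 RIP replicate 1. Of the fusion and vesicle mRNAs with YTHDF1, 1 was called higher without Input replicate 2, Input replicate 3 or YTHDF1 RIP replicate 1, and 2 were called lower without Input replicate 1, Input replicate 2 or YTHDF1 RIP replicate 1, and 3 without YTHDF2 RIP replicate 1 or YTHDF3 RIP replicate 2. With YTHDF2, 2 were called lower without Input replicate 1, YTHDF2 RIP replicate 1 or YTHDF2 RIP replicate 2. With YTHDF3, 0 were called higher and 4 lower without YTHDF3 RIP replicate 1, and 1 was called higher without any of 6 other libraries (Input replicates 1 and 2, YTHDF1 RIP replicate 1, YTHDF2 RIP replicate 1, YTHDF3 RIP replicates 2 and 3). There 1 was called lower without Input replicate 1 or YTHDF3 RIP replicate 3. The partners called lower with YTHDF1 were 2 without Input replicate 1 or YTHDF1 RIP replicate 1, and those called higher with YTHDF3 were 5 without Input replicate 2. With the length trend removed, 5, 3 and 4 partners, 0 channel subunits in each RIP, and 1, 0 and 0 fusion and vesicle mRNAs were called higher in the 3 RIPs in turn. Of all genes, 22.4%, 13.2% and 15.5% were called higher in that setting. Its calls for the relatives, and its lower calls for the lists, are not given here, so whether the calls of the relatives hold there is left unsaid. The median exonic length of the 24 fusion and vesicle genes was 5104 bases, against 9452.5 for the channel subunits, 8646 for the partners and 7972 for the relatives.

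Across the 12 libraries the log2 CPM of most members moved together, a description that shares the group differences and library depth. Unc13a and Ppfia3 were each other's closest match (Pearson r = 0.988), and Erc1 (0.969), Bsn (0.958) and Pclo (0.934) were each most like Unc13a. Rims1 was most like Rims2 (0.882), Rims2 most like Pclo (0.934), Erc2 most like Rims1 (0.851) and Unc13b most like Ppfia3 (0.717). Ppfia2 was most like Erc2 (0.84) and had the lowest correlation with Bsn (0.175). Among 10520 other genes with a mean of at least 100 normalized counts, those closest to the members' average profile were Synj1 (0.990), Dock4 (0.986), Ralgapa1 (0.983), Plcb1 (0.980) and Ubr3 (0.979). Their exonic lengths ran from 8085 bases in Synj1 to 22923 bases in Dock4, above the median of all genes tested.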

How the data were processed

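The authors prepared stranded total-RNA libraries with molecular identifiers, aligned reads to mouse mm10 (GRCm38) with STAR 2.7.7a after cutadapt 3.4, removed duplicates with UMI-tools 1.1.1, and deposited the raw count of every gene (featureCounts 2.0.1, strand setting 2, genes of Ensembl release 97). Per the file headers, reads with several alignments or overlapping several genes were counted for each. Counting error is therefore a lower bound on the error of a value.

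Gene names came from 1 deposited table; its fold changes, p-values and those of the other 2 tables hold the authors' comparisons and were not used. In R 4.3.3, genes with a mean of at least 10 counts after DESeq2 median-ratio scaling were kept (16820), TMM factors were computed, and all 12 libraries entered 1 edgeR 4.0.16 quasi-likelihood fit of the 4 groups (biological coefficient of variation 0.322), with Benjamini-Hochberg adjustment. A standard error is the log2 fold change divided by the square root of its F statistic, and log2 CPM used a prior count of 2. Ratios of 2 genes used a pseudocount of 1. Named are all 10 members, the highest and lowest called gene of each list in each RIP, and the 5 genes most like the members; Rims3 was named after its values were seen. The members and lists were chosen with earlier results of these data known.

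The script was tested on simulated data. The study's methods call the replicates biological, but for the RIPs do not say whether they came from separate litters, so the p-values measure the spread between these samples. Because pooled lysate was divided among the RIPs, same-numbered libraries were checked for pairing: correlations of their deviations from the group means all exceeded 0.1 for Input with YTHDF3 RIP (0.539 to 0.835), but not for any other pair of groups, so the block is given beside results for Input and YTHDF3 RIP alone. Alternatives were DESeq2 1.42.0, DESeq2 size factors, library size alone, no filter, a minimum of 50, the replicate block, length-trend removal (loess span 0.3), 2 groups only, and leaving out each library.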

Additional observations from a re-analysis of the deposited data

Results flagged for a closer look

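The effects of 2 RIPs against the shared input differed, by a direct test between the RIPs, for 3 scaffold genes. Of the 10 members, 3 were called higher with YTHDF1 than with YTHDF2, where 11.4% of all genes were. Only 1 was called higher with YTHDF1 than with YTHDF3, near the 11% of all genes, and 1 lower with YTHDF2 than with YTHDF3, against 1.17%. Pclo was higher in the YTHDF1 RIP than in the YTHDF2 RIP by 2.23 and than in the YTHDF3 RIP by 1.78 on the log2 scale. Rims2 was higher in the YTHDF1 than in the YTHDF2 RIP by 1.73. Erc2 was higher in the YTHDF1 than in the YTHDF2 RIP by 1.27, and its difference between the YTHDF2 and YTHDF3 RIPs was -1.33. Without TMM, Pclo stood at 1.78 and 1.08 in these comparisons and Rims2 at 1.26, while Erc2 stood at 0.79 and -1.58. The Erc2 value of 0.79 was under the 2-fold difference set for a call. With the length trend removed the values were 1.15 and 0.96 for Pclo, 1.23 for Rims2, and 0.82 and -1.21 for Erc2, so that Pclo between the YTHDF1 and YTHDF3 RIPs and Erc2 between the YTHDF1 and YTHDF2 RIPs were then under the 2-fold difference set for a call.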

How the results depend on the processing

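The number of members called higher over input moved with the length trend: with YTHDF1 it was 4, with 2 lower (also with the replicate block), and 3 with 1 lower for the length of 1 transcript, a setting chosen after seeing the data. With YTHDF2 it was 0, with 2 lower, and with YTHDF3 0, under all 3 length settings. Without a filter on low counts it was 2 with YTHDF2, where 2037 of 44478 genes were called higher. Between the YTHDF1 and YTHDF2 RIPs, 1 member was lower with the length trend removed, with or without the block, and 1 was higher for 1 transcript. Of the 16820 genes, 1256 were lower with and 1238 without the block, and 1466 were higher for 1 transcript. Between the YTHDF1 and YTHDF3 RIPs, 2 members were higher with DESeq2 or no filter, 2 lower with library size alone, and 0 higher under the 3 length settings, with 1 lower under the first pair of them. Over all genes, 1845 of 16820 were higher with DESeq2 and 2189 of 44478 with no filter, and 3393 of 16820 were lower with library size alone. The length settings gave 1189, 1102 and 1176 higher, with 988 and 968 lower under the first pair. Between the YTHDF2 and YTHDF3 RIPs, 3 members were lower with library size alone or no filter, where 718 of 16820 and 769 of 44478 genes were lower. Calls in the higher direction between RIPs were 65.1% (YTHDF1 over YTHDF3) and 57.6% (YTHDF2 over YTHDF3) with no filter. Beyond the length settings, the causes were not tested.

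With the replicate block in all 12 libraries, 9, 4 and 7 members were called higher over input, where 4527, 2642 and 2783 of the 16820 genes were. In fits of 2 groups with the replicate block the members called higher were 6, 3 and 10, and of all genes 2390, 2000 and 6144. Between the RIPs 4 members were called for YTHDF1 and YTHDF2, 0 for YTHDF1 and YTHDF3 and 1 for YTHDF2 and YTHDF3. In the same order, 1780, 328 and 294 of all genes were higher and 1330, 101 and 98 lower. Every pair of same-numbered libraries correlated above 0.1 for Input and YTHDF3 RIP alone. Correlations at the same number ran from -0.329 to 0.0895 (Input with YTHDF1 RIP) and -0.326 to 0.186 (Input with YTHDF2 RIP). They ran from -0.351 to 0.106 for the YTHDF1 with the YTHDF3 RIP and from -0.355 to 0.175 for the YTHDF2 with the YTHDF3 RIP. Between the YTHDF1 and YTHDF2 RIPs all were positive, at 0.0697, 0.553 and 0.361 for numbers 1 to 3. Replicate 2 of these RIPs correlated most with replicate 3 of Input (0.471 and 0.568). The numbers of the YTHDF1 and YTHDF2 RIPs may therefore not mark lysate shared with Input. Their counts with the block are not read as a change in effect.

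Reversals of sign were as follows, as log2 values. Over input with YTHDF1, Ppfia2 stood at -0.32 (library size alone), -0.038 (minimum of 50), -0.035 (2 groups), -0.851 (length trend removed), -0.814 (with the block) and -1.317 (1 transcript), Unc13b at -1.104, -1.111 and -0.484 under the 3 length settings, and Rims1 and Erc2 at -0.04 and -0.164 for 1 transcript. With YTHDF2, Rims2 stood at 0.02 with library size alone and Rims1 at -0.205, -0.216 and -0.379 under the length settings, as did Ppfia2 with YTHDF3 at -0.176, -0.18 and -0.388. For YTHDF1 over YTHDF2, Erc1 stood at -0.085, -0.104 and -0.032 under the length settings, and for 1 transcript Unc13a at -0.195 and Ppfia2 at -0.246. For YTHDF1 over YTHDF3, library size alone gave Rims1 -0.553, Unc13a -0.05, Erc1 -0.056 and Ppfia3 -0.157. There Rims1 stood at -0.044, -0.028 and -0.266 under the length settings, -0.021 with 2 groups and -0.038 with 2 groups and the block, and Unc13a at -0.092 for 1 transcript. For YTHDF2 over YTHDF3, Bsn stood at -0.076 (library size alone), -0.032 (no filter) and -0.029 (2 groups with the block), and the length settings gave Unc13a 0.077, 0.089 and 0.103, Unc13b 0.24, 0.25 and 0.101, Erc1 0.129, 0.133 and 0.083, and Ppfia3 0.027, 0.045 and 0.028.

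With 1 library left out, members called higher numbered 6 to 9, 1 to 6 and 3 to 9 over input, 3 to 4 and 1 to 2 for YTHDF1 over YTHDF2 and YTHDF3, and 1 was lower for YTHDF2 over YTHDF3 throughout. Of the 16820 genes, 3662 to 4578, 1924 to 3058 and 1972 to 3638 were called higher over input. Between the RIPs, 1532 to 2067 and 1238 to 1990 were higher for YTHDF1, and 61 to 345 lower for YTHDF2 over YTHDF3. The log2 values that changed sign ranged from -0.179 to 0.271 for Ppfia2 with YTHDF1, and with YTHDF2 from -0.233 to 0.081 for Rims2 and -0.167 to 0.321 for Rims1. For YTHDF1 over YTHDF3 they ranged from -0.354 to 0.138 for Erc2 and -0.313 to 0.452 for Rims1, and for YTHDF2 over YTHDF3 from -0.3 to 0.117 for Unc13a, -0.223 to 0.152 for Ppfia3, -0.294 to 0.527 for Bsn, -0.163 to 0.162 for Unc13b and -0.178 to 0.002 for Erc1. Ratio differences ranged from -0.297 to 0.431 for Bsn over Pclo with YTHDF1, -0.049 to 0.137 for Rims1 over Rims2 with YTHDF3 and -0.131 to 0.235 for Unc13a over Unc13b with YTHDF2. Of 720 values for single members with 1 library left out, 655 kept their direction and side of the threshold, as did 509 of 660 under the other settings. The 720 include fits in which the library left out belonged to neither group compared. There a value could move only through the scaling and the shared estimate of the spread, so the 655 overstate how stable the values are.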
